A study of Mus musculus with 6 samples.

Results

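The SOX proteins are transcription factors that bind DNA through an HMG box and fall into classes by sequence. The 10 genes described here are those that mark and steer cell states in the embryonic cortex: SoxB1 (Sox1, Sox2 and Sox3), SoxC (Sox4, Sox11 and Sox12), SoxD (Sox5 and Sox6), the SoxE gene Sox9 and the SoxB2 gene Sox21. They were taken by symbol, with the row of highest mean normalized count for each, and all 10 were found among 12041 symbols. RNA was measured at embryonic day 12.5 in the cortex of C57BL/6 mice, in 3 libraries in which both histone deacetylase genes, Hdac1 and Hdac2, are conditionally knocked out (cKO: HM-5, HM-13, HM-16) and in 3 wild-type libraries (WT: HC-1, HC-8, HC-10). Values per library follow that order throughout. HM was read as mutant and HC as control from the letters of the column names. The labels give neither the promoter that drives the recombinase nor the deleted exons, the genotype of littermates or whether a library is 1 embryo, so a p-value here reflects library-to-library spread alone, possibly of technical origin. The question is how the transcripts of each Sox class stand when both deacetylases are reduced.

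As background, SoxB1 proteins hold neural cells in a dividing progenitor state and work in part with POU-domain partners. Sox21 binds similar sites and acts as a repressor that opposes SoxB1 proteins and favours neuronal differentiation. SoxC proteins turn on neuronal genes in cells that have left the progenitor state, SoxD proteins time the formation of deep-layer neurons and other lineages, and Sox9 supports neural stem cells and later the start of glial development.

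The libraries hold 9712556 to 11922665 recovered reads each, and 1488 to 25964 reads per library lie behind each of the 8 members that were tested. Hdac1 had 45.5, 61.0 and 47.4 FPKM (fragments scaled to transcript length and library size) in cKO, against 212, 197 and 193 FPKM in WT. Hdac2 had 37.6, 61.7 and 47.5 FPKM in cKO, against 134, 216 and 272 FPKM in WT. Library HM-13 stood apart: it kept the highest level of both targets among the cKO libraries, and ribosomal RNA (Rn45s) took 29.7% of its reads, where the other 5 libraries had 0.506% to 2.48%. Xist, the transcript of the inactive X chromosome, was high in HM-16 (105 FPKM) and HC-8 (155 FPKM) and at most 0.0943 FPKM in the other libraries. Cortical identity genes were well expressed, with 6 of 7 having a row and a summed level of 541 to 659 FPKM in cKO libraries and 549 to 607 FPKM in WT libraries. Among these, Emx2 was called higher (240 ± 48.9 FPKM in cKO, 158 ± 13.7 FPKM in WT, n = 3 each; limma adjusted p = 0.0360), a call that ended in 5 of the 6 leave-one-out fits.

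Promoter sequence was available for 8 of the 10 members. The 250 bases before the RefSeq start (GRCm38.p6, gene strand) are shown for Sox21, a member that rose in cKO, and for the SoxB1 genes Sox2 and Sox1, which did not pass the test. Most of the Sox1 window lies inside the GENCODE gene, which starts at 12395295, upstream of the RefSeq start. The Sox2 window ends at 34649994, upstream of the GENCODE gene start at 34650405. Capitals mark ACAAT or ACAAAG, the core letters that SOX factors bind, searched on both strands (as ATTGT and CTTTGT on the other). The windows are chr14:118237031-118237280 on the minus strand for Sox21, chr3:34649745-34649994 on the plus strand for Sox2 and chr8:12395269-12395518 on the plus strand for Sox1.
Sox21: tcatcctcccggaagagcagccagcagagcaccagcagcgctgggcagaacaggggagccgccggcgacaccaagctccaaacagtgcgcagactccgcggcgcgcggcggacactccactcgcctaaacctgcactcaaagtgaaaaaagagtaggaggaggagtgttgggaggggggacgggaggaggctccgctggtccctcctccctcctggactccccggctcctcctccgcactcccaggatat
Sox2: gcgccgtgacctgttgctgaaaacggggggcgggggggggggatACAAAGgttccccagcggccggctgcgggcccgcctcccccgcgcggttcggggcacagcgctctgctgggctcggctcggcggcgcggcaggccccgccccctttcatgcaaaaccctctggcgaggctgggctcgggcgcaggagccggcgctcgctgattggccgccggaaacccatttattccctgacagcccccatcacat
Sox1: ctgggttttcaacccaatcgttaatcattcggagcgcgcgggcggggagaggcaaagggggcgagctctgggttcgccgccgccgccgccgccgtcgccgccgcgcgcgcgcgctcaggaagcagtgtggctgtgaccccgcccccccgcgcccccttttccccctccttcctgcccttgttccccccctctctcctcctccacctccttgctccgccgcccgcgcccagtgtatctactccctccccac
The Sox2 window holds 1 match to ACAAAG and none to ACAAT, and the Sox21 and Sox1 windows hold neither. Among 32851 RefSeq promoter windows of this length, 27.7% hold ACAAT and 16.5% hold ACAAAG. All 3 windows are rich in CpG, the dinucleotide that carries DNA methylation, with 17 in Sox21, 27 in Sox2 and 29 in Sox1, against a median of 6 over all windows. A match or its absence describes these letters only.

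Of the 8 members tested, 2 rose in cKO, Sox3 and Sox21, and 0 fell. Called changed were genes with an adjusted p under 0.05 in limma's fit of log2(FPKM + 1) over the 9359 genes with at least 1 FPKM in at least 3 libraries. In that fit 9.62% of all genes were called higher and 8.39% lower, 18.0% in all, so with 8 members the count is small and is read by gene. Counting unadjusted p under 0.05, 4 members were higher (Sox2, Sox3, Sox9 and Sox21) and 0 lower. That level was reached by 3209 of the 9359 genes tested, in either direction. Limma's voom on recovered reads also called 2 higher and 0 lower, against 11.2% and 9.26% of all genes (20.4% in all). The median log2 fold change was 0.17 over the 8 members and -0.01 over all genes tested. The cKO values lay wholly above the WT values for Sox2, Sox3 and Sox21 and wholly below for none of the 8, where 19.5% and 19.6% of all tested genes do so (39.1% in all).

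**Figure D1:**
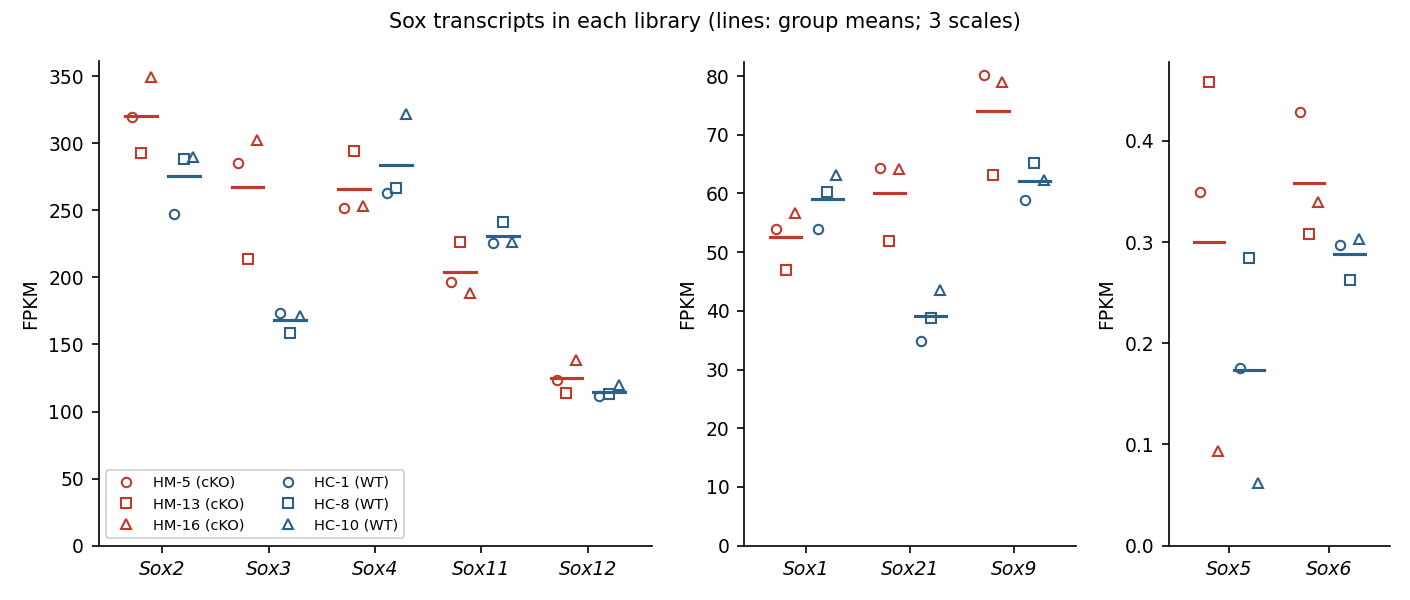
FPKM of the 10 Sox genes in each library, with cKO values in red left of WT values in blue, group means as lines, and a scale of its own from 0 in each of the 3 panels. Sox2, Sox3, Sox21 and Sox6 are separated between groups, Sox2 and Sox6 by small gaps. Sox1, Sox4, Sox11, Sox12, Sox9 and Sox5 overlap, and Sox5 and Sox6 lie below 0.5 FPKM in the rows kept.

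The SoxB1 genes moved unequally. Sox3 (ENSMUSG00000045179, chromosome X, 60891366 to 60893430, minus strand, GRCm38; 1 exon), a SoxB1 factor of early neural progenitors, had 285, 214 and 303 FPKM in cKO, against 173, 159 and 171 FPKM in WT. All 3 cKO values were above all 3 WT values, and HM-13 was the cKO library nearest to WT. The mean was 267 ± 46.9 FPKM in cKO and 168 ± 7.85 FPKM in WT (SD, n = 3 each), a 1.59-fold ratio, with a log2 fold change of 0.65 (SE 0.13) and limma adjusted p = 0.0143. Sox3 is X-linked, and the libraries with Xist were the highest of the cKO group (HM-16) and the lowest of the WT group (HC-8). Without these libraries, 2 against 2, the log2 fold change was 0.52 and the adjusted p 0.105. In that fit Sox21, on chromosome 14, also lost its call (log2 fold change 0.56, limma adjusted p = 0.105). Over all genes 93 were called there, against 1685 with all libraries. Whether X linkage has a part in the Sox3 values was not tested.

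Sox2 (chromosome 3, 34650405 to 34652461, plus strand; 1 exon), the SoxB1 factor best known for keeping stem cells undifferentiated, had 319.9, 292 and 349 FPKM in cKO, against 247, 288 and 290.0 FPKM in WT. The groups did not overlap, but the gap between HM-13 and HC-10 was small, and the mean ratio of 1.16 did not pass (limma adjusted p = 0.136, 95% interval 1.004 to 1.35-fold on the FPKM + 1 scale). Sox2 lies inside the longer noncoding gene Sox2ot on the same strand, whose row of higher count averaged 1.65 ± 0.43 FPKM in cKO and 1.64 ± 0.52 FPKM in WT. Its other row, of nearly equal mean count, had 0.964, 1.499 and 0.789 FPKM in cKO, against 1.40, 1.46 and 2.10 FPKM in WT, and the summed rows did not pass (log2 fold change -0.19, limma adjusted p = 0.481). Sox1 (chromosome 8, 12395295 to 12400126, plus strand; 1 exon), the SoxB1 factor whose expression follows neural induction, had 54.0, 47.0 and 56.6 FPKM in cKO, against 54.0, 60.2 and 63.1 FPKM in WT. Its groups overlapped, at 88.9% of WT (adjusted p = 0.236, interval 0.768 to 1.03-fold).

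These differences changed the make-up of the SoxB1 class. Within each library, Sox3 was 0.891, 0.732 and 0.867 of the Sox2 level in cKO, against 0.701, 0.551 and 0.591 in WT. Sox1 made up 8.20%, 8.48% and 7.99% of summed SoxB1 FPKM in the cKO libraries, against 11.4%, 11.9% and 12.0% in the WT libraries. The groups did not overlap for either measure, and the Sox1 share varied little within a group: 8.22% ± 0.25 in cKO and 11.8% ± 0.34 in WT (SD, n = 3 each). Such shares are ratios within a library and do not depend on library scaling; they do depend on the lengths used, although rescaled to GENCODE lengths neither measure overlapped between groups. They carry no test here.

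Sox21 (ENSMUSG00000061517, chromosome 14, 118233232 to 118237030, minus strand; 1 exon), the repressor that opposes SoxB1 proteins, was the other member that rose. It had 64.3, 51.9 and 64.3 FPKM in the cKO libraries, against 34.8, 38.8 and 43.6 FPKM in the WT libraries. The groups were separate, and HM-13 was again the cKO library nearest to WT. The mean was 60.2 ± 7.12 FPKM in cKO and 39.0 ± 4.36 FPKM in WT (SD, n = 3 each), a 1.54-fold ratio with a log2 fold change of 0.61 (SE 0.11, limma adjusted p = 0.0122). The strand setting of the read counting is not given in the sources used here, so reads of Sox21 and of the noncoding gene Gm4675 on the opposite strand cannot be told apart (likewise Sox4 and Gm26735, and Sox1 and Sox1ot on its own strand). Relative to its SoxB1 counterparts Sox21 was also higher: its level was 9.76%, 9.39% and 9.07% of summed SoxB1 in the cKO libraries and 7.34%, 7.64% and 8.30% in the WT libraries. Leaving out either HM-5 or HM-16 ended the calls of Sox3 and Sox21: without HM-5 the adjusted p was 0.0651 for Sox3 and 0.0593 for Sox21, and without HM-16 it was 0.0538 and 0.0544. Both were also lost when all recovered reads, Rn45s included, set the scale (adjusted p = 0.123 and 0.223), and kept when Rn45s was not counted in the total (adjusted p = 0.0131 and 0.0127). In these fits the log2 fold changes were 0.56 to 0.60 for Sox3 and 0.52 to 0.56 for Sox21 where the call was lost, near those of the fit of all libraries; with all recovered reads as the scale the SE was 0.22 and 0.23. In the authors' deposited table, Sox3 has a log2 fold change of 0.64 (FDR 2.47e-07) and Sox21 one of 0.60 (FDR 1.13e-06).

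**Figure D2:**
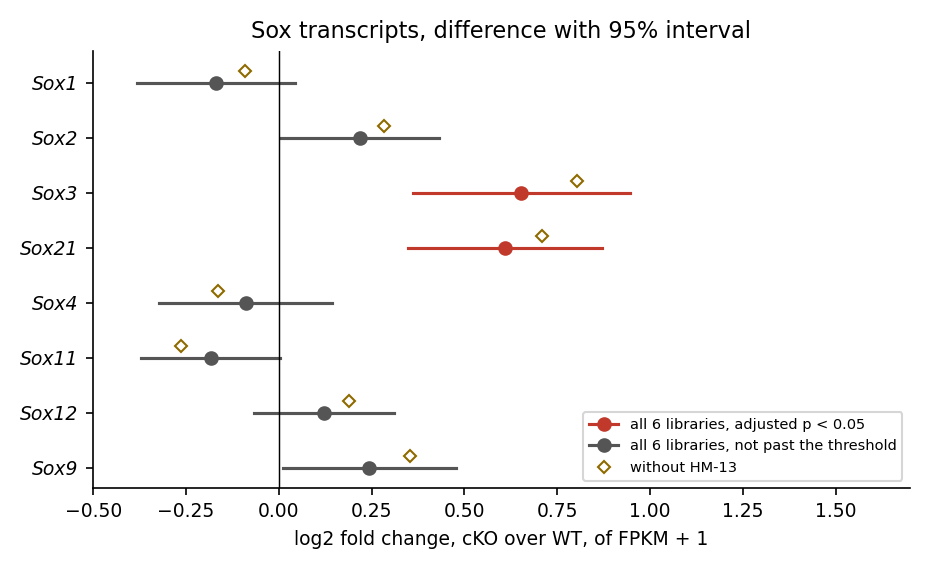
Log2 fold change of FPKM + 1, cKO over WT, for the 8 tested Sox genes with 95% intervals (circles, all 6 libraries) and the estimate without HM-13 (diamonds). Sox3 (0.65) and Sox21 (0.61) lie farthest right, and leaving out HM-13 moves 7 of the 8 estimates away from 0, Sox1 being the exception.

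Of the SoxC genes, 0 of 3 passed the test; with voom likewise 0 passed, where 1 member, Sox11, reached an unadjusted p under 0.05 (limma gave 0). Sox11 (chromosome 12, 27334264 to 27342574, minus strand; 1 exon), a driver of neuronal genes in newborn neurons, had 196, 227 and 188 FPKM in cKO, against 225, 241 and 226 FPKM in WT. HM-13 reached into the WT range, and the other cKO libraries lay below it. At 88.2% of WT the difference did not pass (limma adjusted p = 0.150, interval 0.774 to 1.002-fold). Sox4 (chromosome 13, 28948919 to 28953713, minus strand; 1 exon), which shares this role, had 252, 294 and 253 FPKM in cKO, against 263, 267 and 321 FPKM in WT, and Sox12 (chromosome 2, 152393611 to 152398063, minus strand; 1 exon), the weakest activator of the class, had 124, 114 and 139 FPKM in cKO, against 111, 113 and 119.8 FPKM in WT. Both overlapped between groups (adjusted p = 0.569 and 0.325; intervals 0.800 to 1.10-fold and 0.956 to 1.24-fold). The direction of Sox4 was not stable: its log2 fold change was -0.09, and it was 0.03 after quantile normalization. Sox4 levels are per a length of about 2955 bases implied by the deposited values, shorter than the 4795 bases of its GENCODE transcript, and those of Sox2 per about 2468 bases where GENCODE has 2057. Sox1 levels are per about 4040 bases where GENCODE has 4832. These lengths bear on the order of members and classes by level but not on the ratio of 1 gene between libraries.

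Set against each other, the classes separated the groups, as the SoxB1 sum did alone and the SoxC sum did not. Summed SoxB1 FPKM was 659, 553 and 708 in cKO, against 475, 507 and 525 in WT. For SoxC the sums were 572, 634 and 579.7 in cKO, against 599.5, 621 and 667 in WT, so the SoxC groups overlapped. The ratio of SoxC to SoxB1 within a library was 0.867, 1.15 and 0.818 in the cKO libraries and 1.26, 1.22 and 1.27 in the WT libraries. All 3 cKO ratios lay below all 3 WT ratios, and HM-13 lay between the other cKO libraries and WT. Sox3, the only SoxB1 gene called, made up 43.3%, 38.7% and 42.7% of summed SoxB1 FPKM in cKO. In WT it made up 36.5%, 31.3% and 32.7%. By the levels given above, Sox1 and Sox2 summed without Sox3 overlapped between groups, as did SoxC over that sum. Whether a ratio lies above or below 1 depends on the transcript lengths: rescaled to GENCODE lengths the ratios were 0.669, 0.869 and 0.631 in cKO, against 0.974, 0.941 and 0.957 in WT, still without overlap. As shares of all 10 members, SoxB1 took 42.5% to 49.5% in cKO and 40.4% to 41.2% in WT, and SoxC 40.5% to 48.7% in cKO and 50.4% to 51.4% in WT. No test was made on these sums, and in bulk tissue fewer cells of a type and less RNA per cell cannot be told apart. The summed level of the 8 neuronal marker genes ranked the 6 libraries in the same order as the SoxC sum, at 844, 1262 and 875 FPKM in cKO and 1165, 1228 and 1545 FPKM in WT. Tubb3 made up most of that sum, at 611, 895 and 630 FPKM in cKO and 778, 884 and 1059 FPKM in WT. It had this order by itself, and no other gene of the list did. For Stmn2 and Gap43 every cKO value lay below every WT value (limma adjusted p = 0.0617 and 0.0666), while the other genes of the list overlapped. With limma 0 of the 8 passed and 3 reached an unadjusted p under 0.05; voom called 2, and 4 fell without HM-13. Their part in the SoxC values was not tested.

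**Figure D3:**
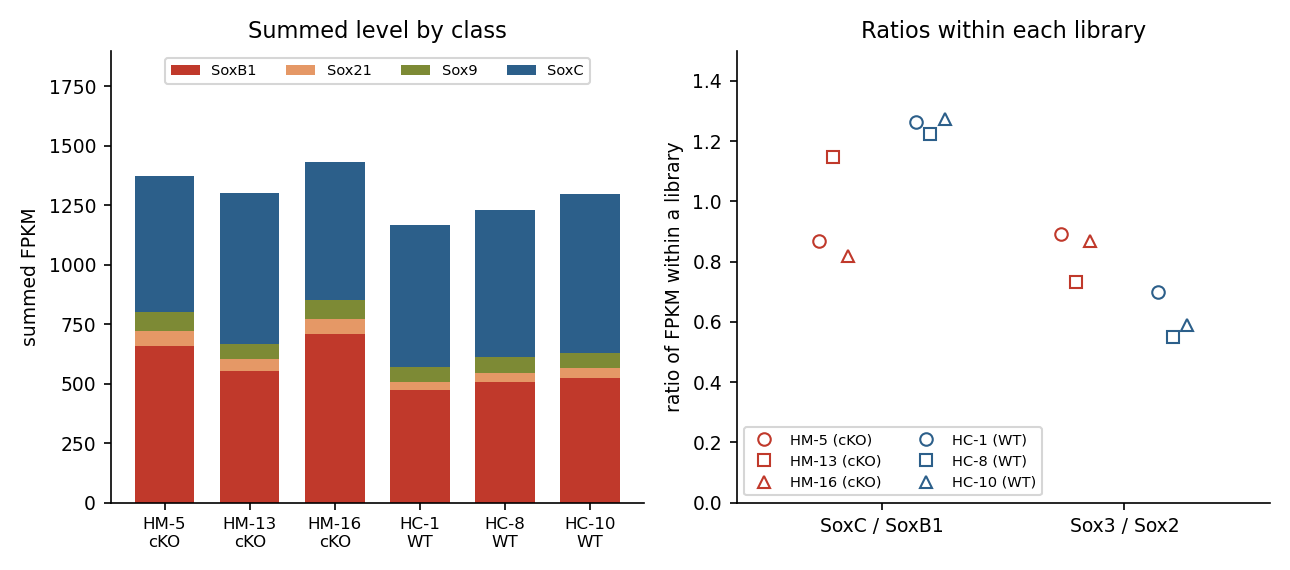
Left, summed FPKM of SoxB1, Sox21, Sox9 and SoxC stacked for each library (SoxD, under 1 FPKM, is not drawn); right, the ratios SoxC to SoxB1 and Sox3 to Sox2 within each library, cKO in red left of WT in blue. The SoxC to SoxB1 ratio is 1.22 to 1.27 in WT and 0.818 to 1.15 in cKO, with HM-13 the highest cKO value.

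Sox9 (chromosome 11, 112782224 to 112787760, plus strand; 3 exons), a factor of neural stem cells and of early glial fate, had 80.2, 63.1 and 79.0 FPKM in cKO, against 58.9, 65.2 and 62.3 FPKM in WT. HM-5 and HM-16 stood above every WT library and HM-13 inside the WT range. The mean was 74.1 ± 9.55 FPKM in cKO and 62.1 ± 3.14 FPKM in WT (1.19-fold, n = 3 each), which did not pass (limma adjusted p = 0.129, interval 1.01 to 1.39-fold). Without HM-13, Sox9 passed as higher (log2 fold change 0.35, adjusted p = 0.0176) and Sox11 as lower (-0.26, adjusted p = 0.0358), so that 3 members rose and 1 fell in a fit that called 10.5% of all genes higher and 8.90% lower (19.4% in all). HM-13 was the cKO library nearest to the WT mean for 7 of the 8 tested members, against 46.2% of all tested genes and 61.4% of all called genes. Its ribosomal RNA and its higher Hdac1 and Hdac2 levels move together in this library, and their parts in these values cannot be told apart.

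In the rows kept, the SoxD genes were listed near background. Sox5, which times the production of deep-layer neurons, had 12, 12 and 3 reads in the cKO libraries, against 6, 11 and 2 reads in the WT libraries, or 0.349, 0.459 and 0.0937 FPKM against 0.176, 0.284 and 0.0618 FPKM. Sox6, which keeps dorsal and ventral forebrain progenitors distinct, had 42, 23 and 31 reads in cKO, against 29, 29 and 28 reads in WT, or 0.429, 0.308 and 0.339 FPKM against 0.298, 0.263 and 0.303 FPKM. Neither of these rows reached the level needed for testing, and without that filter neither passed (limma adjusted p = 0.492 for Sox5 and 0.552 for Sox6). In these rows the groups overlapped for Sox5 and did not for Sox6, whose lowest cKO value and highest WT value lay close together. Sox6 has 3 rows. The one of next highest count had 0.824, 0.772 and 0.378 FPKM in cKO, against 0.473, 0.800 and 0.541 FPKM in WT, with overlap. Summed over its rows, Sox6 entered the test and did not pass (log2 fold change 0.12, limma adjusted p = 0.585). The rows are transcripts, and both genes have several: RefSeq lists 4 curated mRNAs (NM accessions) for Sox5 and 6 for Sox6, and 1 for each of the 8 other members. Over all matched symbols, genes with 1 such mRNA had a median of 10.4 FPKM (6131 genes), those with 2 or 3 had 2.04 FPKM (2477 genes) and those with 4 or more 1.61 FPKM (932 genes). How reads shared by several transcripts were counted is not given in the sources used here, and whether the listed SoxD levels stand for the whole genes was not tested; Nes and Slc1a3, with 1 such mRNA each, are also listed low, at 0.504 and 0.682 FPKM.

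In order of mean level, WT cortex ran Sox4, Sox2, Sox11, Sox3, Sox12, Sox9, Sox1, Sox21, Sox6 and Sox5, and the ranges of neighbours overlapped between Sox4 and Sox2, Sox9 and Sox1, and Sox6 and Sox5. In cKO cortex the order was Sox2, Sox3, Sox4, Sox11, Sox12, Sox9, Sox21, Sox1, Sox6 and Sox5. There Sox3 had rank 2, overlapping with Sox2 and Sox4, where in WT it had rank 4 and stood apart from both neighbours. Sox21 passed Sox1 in mean level, with overlapping ranges. These orders hold for the deposited lengths: at GENCODE lengths Sox4 averaged 164 ± 14.9 FPKM in cKO and 175 ± 20.2 FPKM in WT (n = 3 each), below Sox11 in both groups. Sox3 then kept rank 2 in cKO and rank 4 in WT, now separate from Sox2 in cKO and overlapping with Sox4 in WT. The 2 overlaps of Sox1 also ended at GENCODE lengths. In cKO, Sox1 had 39.3 to 47.3 FPKM and Sox21 52.0 to 64.3 FPKM. In WT, Sox1 had 45.2 to 52.8 FPKM and Sox9 59.1 to 65.4 FPKM.

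Genes linked to SOX factors were read list by list, beside the 18.0% of all tested genes called by limma and 20.4% by voom. With limma, an unadjusted p under 0.05 was reached by 3209 of the 9359 genes tested. Of 5 SoxB1 partner genes tested (Pax6, the sixth, was not analysed here), limma called 0, as did voom, and 1 reached an unadjusted p under 0.05. The POU factor Pou3f2, which binds beside SoxB1 proteins, had 14.4 ± 4.27 FPKM in cKO and 21.9 ± 6.07 FPKM in WT (n = 3 each, limma adjusted p = 0.145), and its relative Pou3f1 had 4.77 ± 2.09 FPKM in cKO and 8.67 ± 3.40 FPKM in WT (adjusted p = 0.146). Of 5 tested genes known as SoxB1 targets in neural progenitors, 1 rose and 0 fell. It was Nr2e1, which encodes the nuclear receptor TLX of neural stem cells, at 58.5, 49.7 and 55.8 FPKM in cKO, against 36.8, 41.7 and 46.6 FPKM in WT (1.31-fold, limma adjusted p = 0.0375), and its call ended in 4 of the 6 leave-one-out fits (highest adjusted p = 0.139). The receptor gene Notch1 had 42.0 ± 6.62 FPKM in cKO and 32.2 ± 2.93 FPKM in WT (adjusted p = 0.0767). Cdh2 lay lower, at 159 ± 4.90 FPKM in cKO and 177 ± 8.14 FPKM in WT, without overlap (limma adjusted p = 0.107). An unadjusted p under 0.05 was reached by 4 genes of this list, with Nr2e1, Notch1 and Hes5 higher and Cdh2 lower. The sixth gene of the list, Nes, which encodes the progenitor filament nestin, was below the level tested at 0.501 ± 0.0896 FPKM in cKO and 0.507 ± 0.0588 FPKM in WT.

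Of 5 genes known as SoxC targets, 1 rose and 0 fell, while voom also called Tead2 lower (adjusted p = 0.0361) and Tubb3 fell without HM-13 (limma adjusted p = 0.0350), and the member that rose is not among the general neuronal genes. Prox1, a homeobox gene of several progenitor and neuronal types, had 4.40, 4.13 and 4.74 FPKM in cKO, against 2.51, 2.45 and 2.02 FPKM in WT. It was 1.90-fold higher (log2 fold change 0.71, limma adjusted p = 0.00805) and stayed called in all 6 leave-one-out fits (highest adjusted p = 0.0431). The neuronal tubulin gene Tubb3 had 712 ± 159 FPKM in cKO and 907 ± 142 FPKM in WT (adjusted p = 0.176), and Tead2 had 14.7 ± 0.498 FPKM in cKO and 18.9 ± 2.19 FPKM in WT (adjusted p = 0.0508). The list median was -0.33 although its called member rose.

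Among genes linked to Sox9 in glial fate, 5 of 7 were tested, 1 rose and 0 fell. Zcchc24, which Sox9 and Nfia control together in spinal cord gliogenesis of the mouse, had 27.6, 22.8 and 29.7 FPKM in cKO, against 14.0, 10.98 and 11.8 FPKM in WT. The 2.17-fold rise (log2 fold change 1.06, limma adjusted p = 0.00305) held with each library left out (highest adjusted p = 0.0255). Mmd2, of the same set, had 39.3 ± 2.50 FPKM in cKO and 26.1 ± 8.01 FPKM in WT and did not pass (adjusted p = 0.0815). Of 6 proneural factors, which start neuronal differentiation, limma called 0, with 2 at an unadjusted p under 0.05, while voom called 1; without HM-13, 3 fell. Neurod4 had 1.59 ± 1.12 FPKM in cKO and 3.37 ± 0.206 FPKM in WT (limma adjusted p = 0.0649), and Neurog1 had 19.2 ± 4.53 FPKM in cKO and 26.4 ± 3.28 FPKM in WT (adjusted p = 0.0878). Of the deep-layer genes linked to Sox5, limma and voom each called 0 of 2 tested, and 1 fell without HM-13 (Tbr1, adjusted p = 0.0121). In the fit of all libraries 1 reached an unadjusted p under 0.05, Tbr1, at 82.2 ± 17.5 FPKM in cKO and 104 ± 9.43 FPKM in WT (limma adjusted p = 0.130). Fezf2 had 2.81 ± 0.712 FPKM in cKO and 2.06 ± 0.501 FPKM in WT (adjusted p = 0.275).

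**Figure D4:**
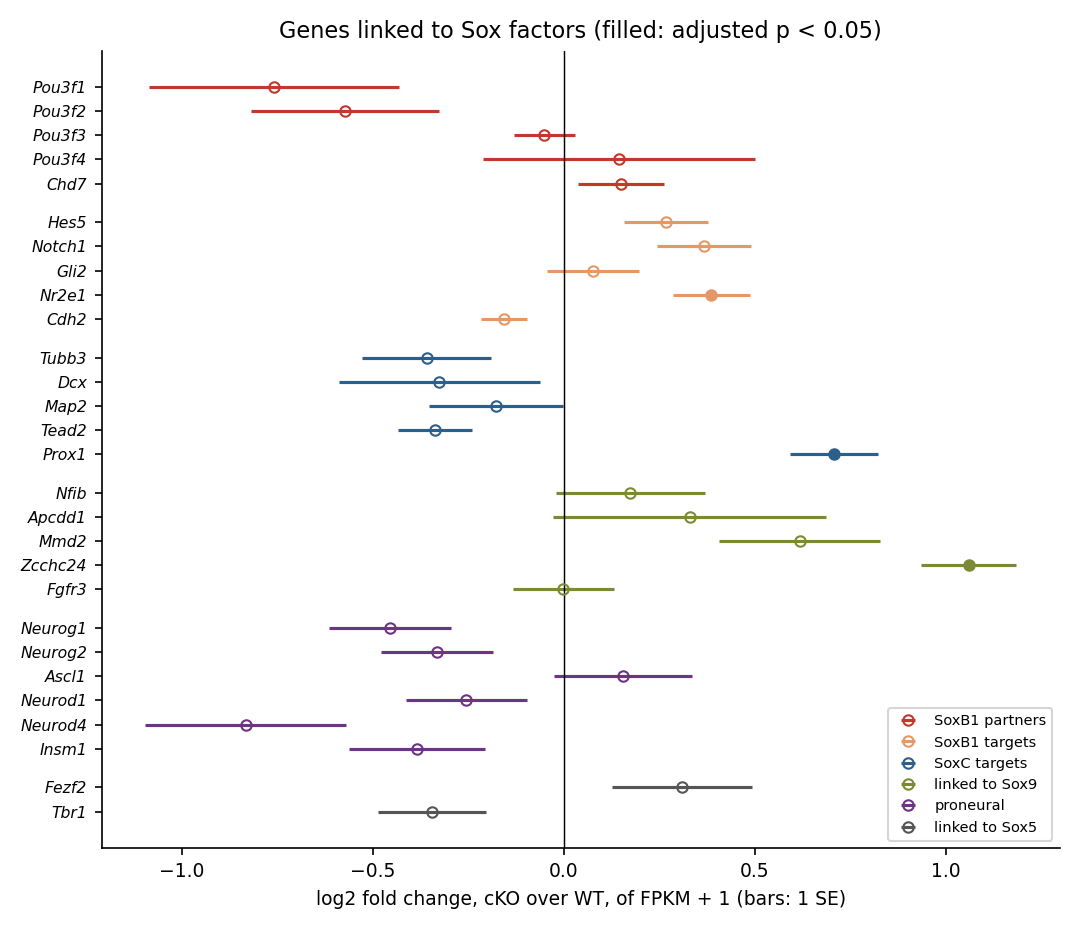
Log2 fold change of FPKM + 1, cKO over WT, with 1 SE, for the tested genes linked to Sox factors, grouped by list. Zcchc24 (1.06), Prox1 (0.71) and Nr2e1 (0.39) are filled as past an adjusted p of 0.05, and most proneural genes lie left of 0 without passing.

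Markers of cell types moved in part with the groups. Of the radial glia list, 7 of 8 genes had a row, 4 were tested, 1 fell and 0 rose, and the summed level was 2151, 2605 and 2201 FPKM in cKO, against 2861, 2710 and 2986 FPKM in WT, without overlap. That separation came with 1 gene: without Fabp7 the sums were 1879, 2176 and 1968 FPKM in cKO, against 2046, 2003 and 2034 FPKM in WT, and overlapped. The gene that fell was Fabp7, a fatty acid binding protein of radial glia, at 311 ± 103 FPKM in cKO and 825 ± 123 FPKM in WT (n = 3 each, limma adjusted p = 0.00643), while Hes1 and Hes5, Notch effectors of the same list, had adjusted p = 0.0761 and 0.130 with higher means in cKO. Fabp7 thus moved opposite to Sox3 and Sox21. Of the microglia list, 3 of 5 genes had a row and C1qb and Tyrobp rose, with sums of 33.7 to 38.8 FPKM in cKO and 20.9 to 27.3 FPKM in WT. Mbp rose among 2 tested oligodendrocyte lineage genes (11.4 ± 2.31 FPKM in cKO and 7.12 ± 0.744 FPKM in WT, adjusted p = 0.0351). The other genes of that list with a row had lower means in cKO. Olig2, the other one tested, had 1.38 ± 1.15 FPKM in cKO and 2.39 ± 0.96 FPKM in WT (limma adjusted p = 0.281). Olig1 and Sox10, below the level tested, were lower in cKO without overlap. Leaving out 1 library ended the call of Mbp in 4 of 6 fits (highest adjusted p = 0.130), of C1qb in 3 (0.0703) and of Tyrobp in 1 (0.0625). In the cartilage list, a tissue in which Sox9, Sox5 and Sox6 act together, 0 of 2 passed, and both overlapped between groups. Col2a1 had 2.90 ± 0.77 FPKM in cKO and 2.36 ± 0.78 FPKM in WT (limma adjusted p = 0.506). Hapln1 had 6.06 ± 1.34 FPKM in cKO and 4.67 ± 0.53 FPKM in WT (adjusted p = 0.212). Acan, below the level tested, had 0.18, 0.11 and 0.297 FPKM in cKO, against 0.0121, 0 and 0.0255 FPKM in WT. Every cKO value of Acan lay above every WT value, at very low levels. Limma called 0 of 2 tested ventral, 0 of 3 endothelial, 0 of 6 meningeal and 0 of 4 erythroid genes, each list with 0 at an unadjusted p under 0.05 and 0 by voom. The part of these cell types in the Sox values was not tested.

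Over the 6 libraries, the profiles most like that of Sox3 on the log2(FPKM + 1) scale were those of Gsg2, 2310022B05Rik and Git1 (Pearson r = 0.999, 0.998 and 0.998), and those most like Sox21 were Gpc1, Frat1 and Fem1a (r = 0.998, 0.997 and 0.996). These are the 3 highest of 9359 genes for each, given as a description without a test, and the group difference and HM-13 are shared by all of them.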

How the data were processed

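The deposited table has 14379 rows with FPKM for 6 libraries, per the file headers. Base calling, alignment, counting and testing used bcl2fastq 1.8.4, DESeq2 1.22.1, STAR 2.5.4b, R 3.4.1, featureCounts 1.6.1 and build mm10, per the submitters' processing notes, which give no roles. The authors' deposited table also holds a mean normalized count per row (a signal over all libraries), a log2 fold change, a p-value and an FDR. The column names carry no replicate number, so libraries go by those names.

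Each FPKM was converted to normalized counts through the row's mean and divided by the value of 1 read fitted per library. In each library 100% of values were whole within 0.001 of a read, a tolerance that grew in proportion to the count for large values. The deposited FPKM follow size factors of 0.804 to 1.19 rather than library totals. One row per symbol was kept. Genes with at least 1 FPKM in at least 3 libraries entered limma 3.58.1 as log2(FPKM + 1) (R 4.3.3, intensity trend, two-sided, Benjamini-Hochberg over 9359 genes), so fold changes of low genes are understated. Ratios of means carry no pseudocount. The fit was also run on simulated counts with the same relative spread for every gene and no outlying library. That run does not cover a library like HM-13. Intervals are limma's 95% intervals. Alternatives were other pseudocounts, filters, scalings, voom, no trend, summed rows and leaving out libraries; leaving out both libraries with Xist and rescaling class sums to GENCODE transcript lengths were added after seeing the data. Gene positions are from GENCODE M21 (GRCm38).

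Named are the 10 members, the other Sox genes, Hdac1 and Hdac2. From each list of linked genes up to 4 called genes or the 2 of smallest p are named. The marker lists follow this rule in part: ventral, meningeal and erythroid genes are given without names. So are the 3 profiles most like each called member. Nes, Notch1, Cdh2, Hes5, Tubb3, Tead2, Mmd2, Olig1 and Olig2 were added after their values were seen. The members and lists were chosen with earlier results of these data known. A result among the cortical identity genes is not reported here.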

Additional observations from a re-analysis of the deposited data

How the results depend on the processing

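With limma, the 2 Sox genes called higher became 0 with library totals and 0 without both libraries with Xist, each with 2 members at an unadjusted p under 0.05, and ran from 0 (without HM-5 or HM-16) to 3 (without HM-13) with 1 library left out; the 0 called lower became 0 to 1. The 1685 genes called overall became 498 with library totals, 93 without the libraries with Xist and 511 to 1773 with 1 library left out. In the other settings 2 members were called higher and 0 lower. The log2 fold change of Sox4 turned to 0.026 after quantile normalization, and ran from -0.16 (without HM-13) to 0.0035 (without HC-10) with 1 library left out; for no other tested member did the sign change. The SoxC sum, at a log2 ratio of -0.08, was at -0.17 with library totals (-0.08 at GENCODE transcript lengths); the causes were not tested. No paired analysis was possible because the columns carry no replicate number. In the rows kept, Sox5 and Sox6 rest on 2 to 42 reads per library.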

Other observations

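Another 6 Sox genes had a row. The SoxE gene Sox10, a marker of neural crest and of the oligodendrocyte lineage, had 2, 1 and 4 reads in cKO, against 12, 18 and 50 reads in WT, in the library order of the report. The groups did not overlap, and HC-10 alone exceeded 1 FPKM, so Sox10 was below the level tested; without that filter its adjusted p was 0.0743 (limma). The authors' deposited table gives it a log2 fold change of -1.07 and a p-value of 3.43e-05 with no FDR. The oligodendrocyte lineage factor Olig1 had 0, 0.267 and 0.175 FPKM in cKO, against 0.45, 1.27 and 0.562 FPKM in WT, whereas Olig2 overlapped between groups, with 0.399, 1.10 and 2.65 FPKM in cKO and 1.57, 3.45 and 2.16 FPKM in WT. Summed ventral telencephalic genes ranged from 1.46 to 18.2 FPKM in cKO and from 4.52 to 45.5 FPKM in WT, with only 3 of 8 having a row, and their part in these values was not tested. Sox8, the SoxE relative of Sox9, had 6.22, 7.97 and 6.64 FPKM in cKO, against 3.20, 3.85 and 6.38 FPKM in WT. It did not pass limma (adjusted p = 0.1001), but passed as higher without HC-10 (log2 fold change 0.81, adjusted p = 0.0229), and the authors' deposited table gives it an FDR of 0.0278.

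The SoxF genes Sox7 and Sox18, which mark endothelium, did not pass the test with all libraries. Sox18 had 15.4, 14.8 and 18.2 FPKM in cKO, against 18.3, 10.03 and 10.8 FPKM in WT (limma adjusted p = 0.311), and passed as higher without HC-1 (log2 fold change 0.58, adjusted p = 0.0274). The endothelial genes Cldn5, Cdh5 and Kdr summed to 87.1, 82.7 and 110 FPKM in cKO, against 109, 59.1 and 65.6 FPKM in WT. HM-16 and HC-1 were the highest of their group in both measures. Sox7 ranged from 4.02 to 6.24 FPKM in cKO and from 2.87 to 5.88 FPKM in WT (adjusted p = 0.519). Sox13, a SoxD gene, averaged 4.59 ± 1.54 FPKM in cKO and 3.43 ± 0.63 FPKM in WT (n = 3 each, limma adjusted p = 0.374), and passed as higher without HM-13 (adjusted p = 0.0484). Sox30 stayed below 1 FPKM in every library, at 0.797 to 0.95 FPKM in cKO and 0.505 to 0.658 FPKM in WT, without overlap; it was below the level tested, and without that filter its adjusted p was 0.113 (limma).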
